A study of Mus musculus with 22 samples.

Results

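The genes described here are 44 members of glycolysis, glucose uptake and gluconeogenesis, chosen by name: glucose transporters, hexokinases, enzymes of upper and lower glycolysis, the PFKFB enzymes that set the level of the phosphofructokinase activator fructose 2,6-bisphosphate, lactate and pyruvate dehydrogenase genes, gluconeogenic and pentose phosphate enzymes, the side-branch genes Bpgm and Tigar, and Hif1a. Of these, 39 had a probe set that named them alone, and each was read from the brightest such probe set over 22 arrays, within 18193 genes read the same way. Gpi1, Pfkfb1, Eno1, G6pdx and Gapdh were not analysed here, the last because the probe sets that name it also name related sequences.

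Glucose enters a cell through facilitated transporters, is trapped by a hexokinase and is split by glycolysis into pyruvate, which is either reduced to lactate and exported or passed by pyruvate dehydrogenase into the mitochondrion. Fructose bisphosphatase and the phosphoenolpyruvate carboxykinases run key steps in the opposite direction (gluconeogenesis), and the pentose phosphate pathway branches off glucose 6-phosphate to make NADPH and ribose. Dendritic cells (DCs) are known to raise glycolysis when they meet microbial products such as lipopolysaccharide (LPS), and HIF-1α, an oxygen- and stimulus-responsive transcription factor, drives many of the genes involved.

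The cells were CD11c+CD8α- DCs sorted by flow cytometry from CD45-enriched pancreas digests of female mice aged 5 weeks. Pre-diabetic NOD mice, a strain that develops autoimmune diabetes, gave 3 arrays at steady state, 4 after culture for 18 h with PBS and 4 after culture for 18 h with LPS. Non-diabetic C57BL/6 mice gave 4, 4 and 3 arrays in the same order. Each steady state sample came from 10 pooled pancreases, and the series describes the cultures as another experiment, while the methods describe cultured and directly lysed cells as portions of the same sorts. Which holds was not settled by the sources, so culture and a difference between experiments cannot be told apart. RNA was amplified and hybridised to Affymetrix mouse whole-genome arrays, and values are log2 signals normalised by RMA, on which a difference of 1 is a doubling. A difference was called at a limma adjusted p under 0.1, and differences are given with their standard error (SE). Nothing in the labels says more of how replicates arose, so p-values measure the spread between these samples, and groups of 3 or 4 arrays limit the precision. In sorted bulk cells, fewer cells of a type and less RNA per cell cannot be told apart, and levels of different genes are not set against each other because probe sets differ in brightness.

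Array medians lay between 7.63 and 7.68 and array lower quartiles between 6.03 and 6.36. The DC markers read in every group, with Itgax (CD11c) at 10.89 ± 0.061 in NOD DCs and 11.32 ± 0.055 in C57BL/6 DCs at steady state (SD, n = 3 and 4). RNA of pancreatic acinar cells was also present: the summed linear signal of 10 acinar markers ranged from 70500 to 138000 in NOD steady state arrays and from 101000 to 135000 in C57BL/6 steady state arrays. The Gapdh control probe sets gave a 3′ minus 5′ difference of 0.98 to 2.35 in NOD and 1.96 to 3.17 in C57BL/6 steady state arrays, and 0.84 to 1.45 in cultured arrays. Their part in the results below was not tested.

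RefSeq gave 63 windows (250 bases before to 50 after a transcript start, build GRCm38.p6) for 43 of the 44 members. These were searched for ACGTG, the core of the hypoxia response element, on both strands; the reverse complement is CACGT, and the palindrome CACGTG, also the core of the E-box bound by Myc and USF proteins, therefore counts on both. Capitals below mark these letters. Shown are Eno2, Slc2a1, Pfkfb3 and Hif1a, which rose in culture, Ldha, which fell in culture and whose window holds 5 matches, Slc16a1, which had the largest LPS difference, and Fbp1, which had the largest strain difference. The windows of Eno2, with the largest rise in culture, and of Fbp1 hold no match.
Eno2, chr6:124769624-124769923, - strand: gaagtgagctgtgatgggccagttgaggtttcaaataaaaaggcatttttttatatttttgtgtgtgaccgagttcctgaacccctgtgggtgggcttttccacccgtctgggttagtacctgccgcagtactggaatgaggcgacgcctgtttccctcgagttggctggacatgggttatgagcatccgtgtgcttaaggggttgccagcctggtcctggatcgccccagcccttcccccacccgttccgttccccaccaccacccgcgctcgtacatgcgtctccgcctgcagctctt
Slc2a1, chr4:119108495-119108794, + strand: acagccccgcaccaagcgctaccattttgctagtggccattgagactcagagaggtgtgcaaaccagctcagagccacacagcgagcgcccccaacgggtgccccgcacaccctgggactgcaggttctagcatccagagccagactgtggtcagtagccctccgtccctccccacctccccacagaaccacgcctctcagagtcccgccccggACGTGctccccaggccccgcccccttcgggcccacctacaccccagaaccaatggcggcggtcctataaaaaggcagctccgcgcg
Pfkfb3, chr2:11502041-11502340, - strand: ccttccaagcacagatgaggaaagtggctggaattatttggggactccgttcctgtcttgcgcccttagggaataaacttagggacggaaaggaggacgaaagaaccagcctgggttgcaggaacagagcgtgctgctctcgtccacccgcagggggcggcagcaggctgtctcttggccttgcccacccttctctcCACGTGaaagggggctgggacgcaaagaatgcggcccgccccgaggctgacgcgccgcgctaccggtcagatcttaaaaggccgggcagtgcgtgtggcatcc
Hif1a, chr12:73907617-73907916, + strand: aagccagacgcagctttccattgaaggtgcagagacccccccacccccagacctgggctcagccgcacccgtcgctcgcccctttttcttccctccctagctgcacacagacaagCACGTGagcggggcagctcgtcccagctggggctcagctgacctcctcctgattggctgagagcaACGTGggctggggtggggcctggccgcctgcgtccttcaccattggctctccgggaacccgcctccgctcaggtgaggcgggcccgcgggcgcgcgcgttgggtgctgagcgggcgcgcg
Ldha, chr7:46845554-46845853, + strand: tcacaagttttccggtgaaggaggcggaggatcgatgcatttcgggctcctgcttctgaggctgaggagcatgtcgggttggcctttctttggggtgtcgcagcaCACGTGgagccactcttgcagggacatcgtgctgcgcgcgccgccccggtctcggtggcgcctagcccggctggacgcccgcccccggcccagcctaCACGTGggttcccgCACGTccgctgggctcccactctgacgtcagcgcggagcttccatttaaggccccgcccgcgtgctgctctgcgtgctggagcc
Slc16a1, chr3:104638414-104638713, + strand: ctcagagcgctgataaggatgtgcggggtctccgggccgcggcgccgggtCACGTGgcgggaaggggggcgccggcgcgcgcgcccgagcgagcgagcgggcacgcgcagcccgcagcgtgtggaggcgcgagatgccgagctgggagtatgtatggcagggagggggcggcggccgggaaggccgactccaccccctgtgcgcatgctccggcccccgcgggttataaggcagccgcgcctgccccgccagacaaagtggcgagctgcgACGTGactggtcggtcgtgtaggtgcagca
Fbp1, chr13:62888233-62888532, - strand: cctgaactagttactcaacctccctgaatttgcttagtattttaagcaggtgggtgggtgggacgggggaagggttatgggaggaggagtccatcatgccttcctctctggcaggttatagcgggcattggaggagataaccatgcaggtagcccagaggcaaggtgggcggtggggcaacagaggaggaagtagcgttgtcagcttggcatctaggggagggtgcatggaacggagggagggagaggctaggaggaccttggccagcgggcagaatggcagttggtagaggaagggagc

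The letters occurred in at least 1 window of 22 of the 43 members (51.2%), against 5886 of 27025 genes with a window (21.8%). By window, 26 of 63 member windows (41.3%) held a match, against 6447 of 32851 over all genes (19.6%). Member windows were also richer in G and C, with a median of 60.0%, against 52.7% over all windows. ACGTG itself holds CG, whose median per 100 bases was 6.0 in member windows and 2.33 over all windows. Neither base composition nor the number of windows per gene was matched. A match in these windows is a description of letters and not a binding site. The windows are those of the C57BL/6J reference, and NOD sequence was not read.

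The first comparison asked how NOD and C57BL/6 DCs differed at steady state. The gluconeogenic gene Fbp1 had the largest difference of the 39 members, and most other called members were lower in NOD: 3 of 39 members were higher and 10 were lower, where 6.87% of all 18193 genes were called higher and 8.35% lower. The members that fell covered several steps, among them the pyruvate dehydrogenase kinases Pdk1 and Pdk4, the phosphofructokinase Pfkp, the mitochondrial carboxykinase Pck2 and the glycolytic regulator Pfkfb3. The median difference over the 39 members was -0.12, against 0.03 over all genes. The plot of strain differences gives each called member with its interval.

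Fbp1 encodes fructose-1,6-bisphosphatase 1, which removes a phosphate from fructose 1,6-bisphosphate and so opposes phosphofructokinase. The gene lies on chr13:62864753-62888298 (GRCm38.p6) and is read by 1 probe set. Its signal was 10.32, 9.72 and 9.91 in NOD DCs, against 5.50, 5.42, 5.01 and 6.35 in C57BL/6 DCs. All 3 NOD arrays were high and all 4 C57BL/6 arrays low, with no overlap and a gap of several log2 units, and 1 C57BL/6 array stood above the other 3. The log2 difference was 4.42 ± 0.27 (21.3-fold), adjusted p = 2.43e-06. The C57BL/6 arrays, but for the highest, lay below the lower quartile of every array, and whether such dim values stand above background was not tested, so the fold rests on a dim group.

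Pdk1, a kinase that switches off pyruvate dehydrogenase and is a known HIF-1 target, showed the largest fall. Its signal was 8.71, 8.45 and 8.57 in NOD DCs, against 10.00, 10.13, 10.17 and 10.36 in C57BL/6 DCs, which do not overlap. The difference was -1.59 ± 0.11 (3.00-fold lower in NOD), adjusted p = 8.97e-06. Of its 4 probe sets, 3 were called lower, with differences of -2.13, -1.59 and -0.95, and the other had -0.45 without a call. Pdk4, another kinase of the family, was at 5.58, 5.50 and 5.44 in NOD and 5.99, 6.45, 5.89 and 6.60 in C57BL/6 DCs, a difference of -0.73 ± 0.17 (adjusted p = 0.0184) between dim values. All NOD arrays were below all C57BL/6 arrays. Pdk2 and Pdk3 and the dehydrogenase subunits Pdha1 and Pdhb were not called.

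At the phosphofructokinase step, which commits glucose to glycolysis, the platelet-type subunit gene Pfkp had 10.68, 10.24 and 10.52 in NOD DCs and 11.45, 11.36, 11.47 and 11.56 in C57BL/6 DCs. The groups did not overlap, and the difference was -0.98 ± 0.12 (adjusted p = 0.000328). A second probe set of Pfkp gave -0.93 with a call and the remaining one gave -0.05 without. Pfkfb3, the PFKFB enzyme with the highest kinase over phosphatase activity, read 9.77, 9.55 and 9.77 in NOD and 10.41, 10.41, 10.26 and 10.53 in C57BL/6 DCs. Again all NOD arrays were lower, with a difference of -0.71 ± 0.10 (adjusted p = 0.00137), but its dimmer probe set showed no difference (-0.0008, adjusted p = 0.998). Pfkfb2 went the other way, 0.39 ± 0.098 (adjusted p = 0.0313), though not all of its probe sets were called. The subunits Pfkl and Pfkm were not called.

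Pck2, which makes phosphoenolpyruvate inside mitochondria, read 9.86, 9.47 and 9.48 in NOD DCs, against 10.42, 10.52, 10.54 and 10.20 in C57BL/6 DCs. The lowest C57BL/6 array was above the highest NOD array, and the difference was -0.82 ± 0.13 (adjusted p = 0.00208). Smaller falls were called for the lysosomal transporter Slc2a6 (-0.57 ± 0.10), the apoptosis regulator and bisphosphatase Tigar (-0.49 ± 0.14), the lactate exporter Slc16a3 (-0.38 ± 0.11) and the pentose phosphate enzymes Tkt (-0.46 ± 0.11) and Pgd (-0.30 ± 0.095). With the replicate number as a block, Pgd lost its call (adjusted p = 0.124). Not all probe sets of Tigar, Tkt and Pgd were called. Hk3, a hexokinase of myeloid cells, was higher by 0.64 ± 0.12 (adjusted p = 0.00598).

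Slc2a1, Ldha, Hk2 and Hif1a were not called in this comparison. Slc2a1, the widely expressed transporter GLUT1, had 10.42, 10.45 and 10.51 in NOD DCs and 10.63, 10.60, 10.81 and 10.90 in C57BL/6 DCs, where the NOD arrays were all lower by a small margin (difference -0.27 ± 0.10, adjusted p = 0.132). Ldha, which turns pyruvate into lactate, had 13.09, 12.66 and 12.99 in NOD and 13.26, 13.13, 13.18 and 13.25 in C57BL/6 DCs, a difference of -0.29 ± 0.12 (adjusted p = 0.148). The inducible hexokinase Hk2 read 10.94, 10.39 and 10.71 in NOD, against 10.89, 10.86, 10.94 and 11.09 in C57BL/6 DCs, which overlapped. Leaving out replicate 1 of the NOD steady state arrays gave both Hk2 and Ldha a call (Hk2 -0.39, adjusted p = 0.0717, with -0.39 to -0.12 over the arrays left out, and Ldha -0.38, adjusted p = 0.0711, with -0.38 to -0.17), and Ldha also with an intensity trend and robust spread (adjusted p = 0.0708). Hif1a also overlapped, at 10.63, 10.99 and 10.82 in NOD and 10.88, 10.99, 11.11 and 10.76 in C57BL/6 DCs (difference -0.12 ± 0.12, adjusted p = 0.553); of its 3 other probe sets, 1 was called lower in NOD (-0.52), as was the mean of its probe sets (-0.28, adjusted p = 0.0655). None of the 5 measured lower glycolysis genes, Pgk1 to Pkm, was called from its brightest probe set, but another probe set of Pgk1 was called. The neuronal-type enolase Eno2 was called higher with the replicate block (0.43, adjusted p = 0.0293).

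Marker genes of other cells and of cycling moved with the strain at steady state. In NOD, 8 of the 9 genes marking cycling cells were lower, with summed signals of 5340 to 6360 in NOD arrays and 12200 to 15400 in C57BL/6 arrays, and of 9 NK and innate lymphoid genes 8 were lower, with sums of 4860 to 5670 in NOD and 9430 to 11100 in C57BL/6 arrays. Of 11 macrophage and monocyte genes 3 were lower, and the 10 acinar genes had uncalled differences of -0.43 to 0.03. DC genes were lower in 4 of 10 cases, and mast cell and basophil genes in 2 of 6. Islet genes were higher in 2 of 5 cases and T cell genes in 1 of 4, and of 5 neutrophil genes 1 was higher and 1 lower. Their part in the member differences was not tested.

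**Figure D1:**
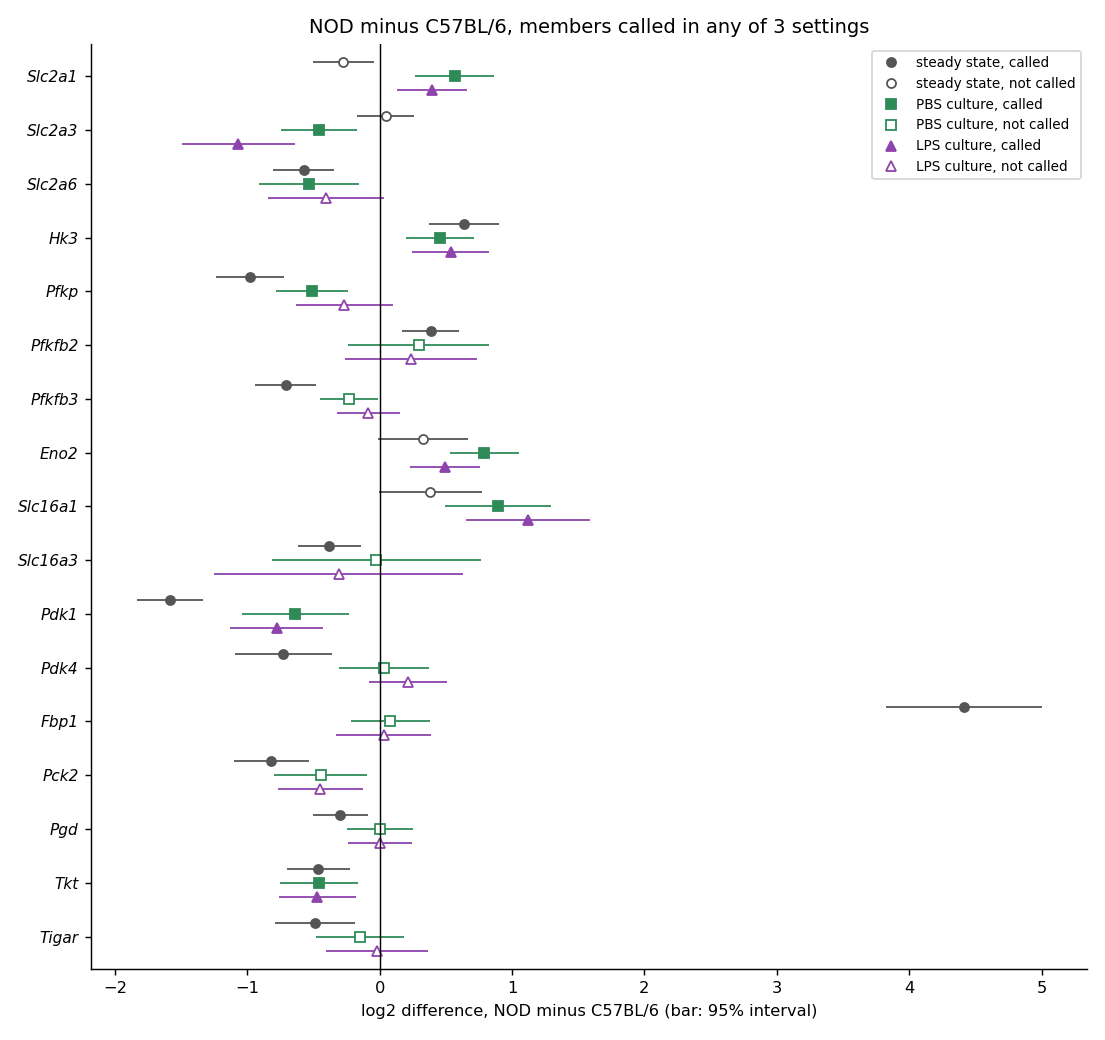
Log2 difference, NOD minus C57BL/6 (x axis), for the 17 members called in at least 1 of 3 settings; bars are 95% intervals, filled symbols were called and open ones not. Fbp1 at steady state stands alone at 4.42, and Hk3, Pdk1 and Tkt are called in all 3 settings.

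The second comparison set the strains side by side after 18 h in culture. After PBS culture 4 members were higher in NOD DCs and 5 lower (5.43% and 5.28% of all genes), and after LPS culture 4 were higher and 3 lower (5.21% and 5.43%). Over the 3 settings Hk3 was called higher each time and Pdk1 and Tkt lower each time, and 22 of 39 members were called in none. The share of all genes called alike in the 3 settings, or in none, was not counted. Most of the steady state differences, Fbp1 among them, were not called after culture, while Slc16a1, Slc2a1 and Eno2 were called higher in NOD under both culture conditions.

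Slc16a1 encodes MCT1, which carries lactate and pyruvate with a proton. After PBS culture it read 9.16, 9.27, 9.46 and 9.01 in NOD DCs, against 8.07, 8.67, 7.93 and 8.65 in C57BL/6 DCs, and after LPS culture 10.51, 10.39, 10.55 and 10.38 in NOD DCs, against 9.58, 8.73 and 9.71 in C57BL/6 DCs. NOD arrays lay above C57BL/6 arrays in both, and C57BL/6 values were more scattered. The differences were 0.89 ± 0.18 (adjusted p = 0.0125) and 1.12 ± 0.21 (adjusted p = 0.0106). Its dimmer probe set gave 0.31 and 0.62 without a call.

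Slc2a1 read 12.94, 13.33, 13.33 and 13.08 in NOD DCs after PBS culture, against 12.59, 12.74, 12.72 and 12.36 in C57BL/6 DCs, again without overlap. The difference of 0.57 ± 0.13 (adjusted p = 0.0274) was called by all 3 probe sets of the gene. After LPS it was at 13.37, 13.50, 13.66 and 13.38 in NOD and 13.11, 13.13 and 12.998 in C57BL/6 DCs, which kept apart by 0.40 ± 0.12 (adjusted p = 0.0833). That call was made by 1 of 3 probe sets, and leaving out any of 6 arrays (NOD LPS replicates 2, 3 and 4 or any C57BL/6 LPS array) ended it, with differences of 0.34 to 0.43 over the arrays left out. The mean of the 3 probe sets was not called (0.38, adjusted p = 0.118).

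Eno2, an enolase best known from neurons, had 11.31, 11.14, 10.91 and 11.12 in NOD and 10.30, 10.18, 10.40 and 10.43 in C57BL/6 DCs after PBS culture. Each NOD array was above each C57BL/6 array, by 0.79 ± 0.12 on average (adjusted p = 0.00197). With LPS it read 11.004, 10.92, 11.07 and 10.74 in NOD and 10.41, 10.42 and 10.47 in C57BL/6 DCs, a difference of 0.50 ± 0.12 (adjusted p = 0.0345), which was lost without C57BL/6 LPS replicate 3 (0.49, adjusted p = 0.104).

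Hk3 was higher in NOD in culture too, with 13.14, 13.06, 13.02 and 13.12 in NOD and 12.57, 12.31 and 12.76 in C57BL/6 DCs after LPS, 0.54 ± 0.13 (adjusted p = 0.0362), and 0.45 ± 0.12 after PBS (adjusted p = 0.0415). The groups did not overlap in either. The call after LPS was lost without C57BL/6 LPS replicate 3 (0.42, adjusted p = 0.135). A second probe set of Hk3 gave 0.30 after PBS without a call.

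Among the genes lower in NOD, Pdk1 had 7.39, 7.51, 7.88 and 7.68 in NOD and 8.13, 8.30, 8.75 and 7.84 in C57BL/6 DCs after PBS culture, where the highest NOD array overlapped the lowest C57BL/6 array. The difference was -0.64 ± 0.18 (adjusted p = 0.0662), and it lost the call without any of NOD PBS replicates 1, 2 and 4 or C57BL/6 PBS replicates 2 and 3, at -0.66 to -0.47. After LPS the arrays were apart, 7.43, 7.59, 8.08 and 7.73 in NOD and 8.61, 8.43 and 8.41 in C57BL/6 DCs, with a difference of -0.78 ± 0.16 (adjusted p = 0.0161). The mean of its 4 probe sets was not called after LPS (-0.72, adjusted p = 0.104). Taken singly, not all 4 were called, either after PBS or after LPS.

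Slc2a3, the high-affinity transporter GLUT3, read 6.89, 7.22, 6.77 and 6.75 in NOD and 7.63, 7.88 and 8.41 in C57BL/6 DCs after LPS, so that all NOD arrays were lower, with a difference of -1.07 ± 0.19 (adjusted p = 0.00876). After PBS the difference was -0.46 ± 0.13 (adjusted p = 0.0605). Of its 4 probe sets, 2 were called after LPS and 1 after PBS.

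The transketolase gene Tkt, of the non-oxidative pentose phosphate branch, had 11.89, 11.67, 11.93 and 11.95 in NOD and 12.17, 12.51 and 12.31 in C57BL/6 DCs after LPS (-0.47 ± 0.13, adjusted p = 0.0618). The groups were apart, yet the call was lost without any of NOD LPS replicates 2 and 3 or C57BL/6 LPS replicates 3 and 4, at -0.49 to -0.38. After PBS the difference was -0.46 ± 0.14 (adjusted p = 0.0714). The dimmest of its 3 probe sets gave -0.02 after PBS and -0.04 after LPS, and the mean of the 3 was not called after LPS (-0.35, adjusted p = 0.108).

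Slc2a6 after PBS was at 11.40, 11.13, 10.86 and 10.90 in NOD and 11.96, 11.76, 11.31 and 11.40 in C57BL/6 DCs, groups that overlapped, with -0.53 ± 0.17 (adjusted p = 0.099). The call was lost without any of 6 arrays (NOD PBS replicates 2, 3 and 4 or C57BL/6 PBS replicates 1, 2 and 4), at -0.60 to -0.42, and under the replicate block it was called after LPS too (-0.52, adjusted p = 0.0471). Pfkp read 10.42, 10.16, 10.52 and 10.30 in NOD and 10.94, 10.74, 11.04 and 10.73 in C57BL/6 DCs after PBS, without overlap (-0.51 ± 0.12, adjusted p = 0.0293). Not all probe sets of Pfkp were called after PBS. Pck2 was not called, at -0.45 ± 0.16 after PBS and -0.45 ± 0.14 after LPS, but was called with the block (-0.45, adjusted p = 0.0714, and -0.56, adjusted p = 0.0351).

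Fbp1 was dim in every cultured array, at 4.29, 4.61, 4.40 and 4.23 in NOD and 4.59, 4.34, 4.17 and 4.11 in C57BL/6 DCs after PBS, and at 4.22, 4.54, 4.76 and 4.81 in NOD and 4.72, 4.52 and 4.42 in C57BL/6 DCs after LPS. The strains overlapped in both conditions. Hif1a overlapped too, with 11.85, 12.28, 12.39 and 12.23 in NOD and 12.05, 12.44, 12.20 and 12.40 in C57BL/6 DCs after PBS. For Hk2, Pfkfb3 and Ldha the strain differences after PBS were 0.30 ± 0.18, -0.23 ± 0.10 and -0.19 ± 0.20, and after LPS 0.35 ± 0.16, -0.09 ± 0.11 and -0.02 ± 0.21, none of them called.

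Markers also differed by strain in culture. NK and innate lymphoid genes were lower in NOD DCs in 5 of 9 cases under each condition. Macrophage and monocyte genes were lower in 4 of 11 cases after PBS and 5 of 11 after LPS, and 1 was higher under each. Neutrophil genes were lower in 2 of 5 cases after PBS and in 3 of 5 after LPS, where 1 was higher. B cell genes were lower in 2 of 4 cases after PBS and 1 of 4 after LPS. Of 10 DC genes, 1 was higher and 4 lower after PBS, and 5 were lower after LPS. The summed DC markers ranged from 50100 to 61400 in NOD and 76400 to 85200 in C57BL/6 arrays after PBS and from 54200 to 59200 in NOD and 74900 to 82100 in C57BL/6 arrays after LPS. The 10 acinar genes had uncalled differences of -1.10 to 0.12 after PBS and -0.69 to 0.98 after LPS. Their part in the results was not tested.

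**Figure D2:**
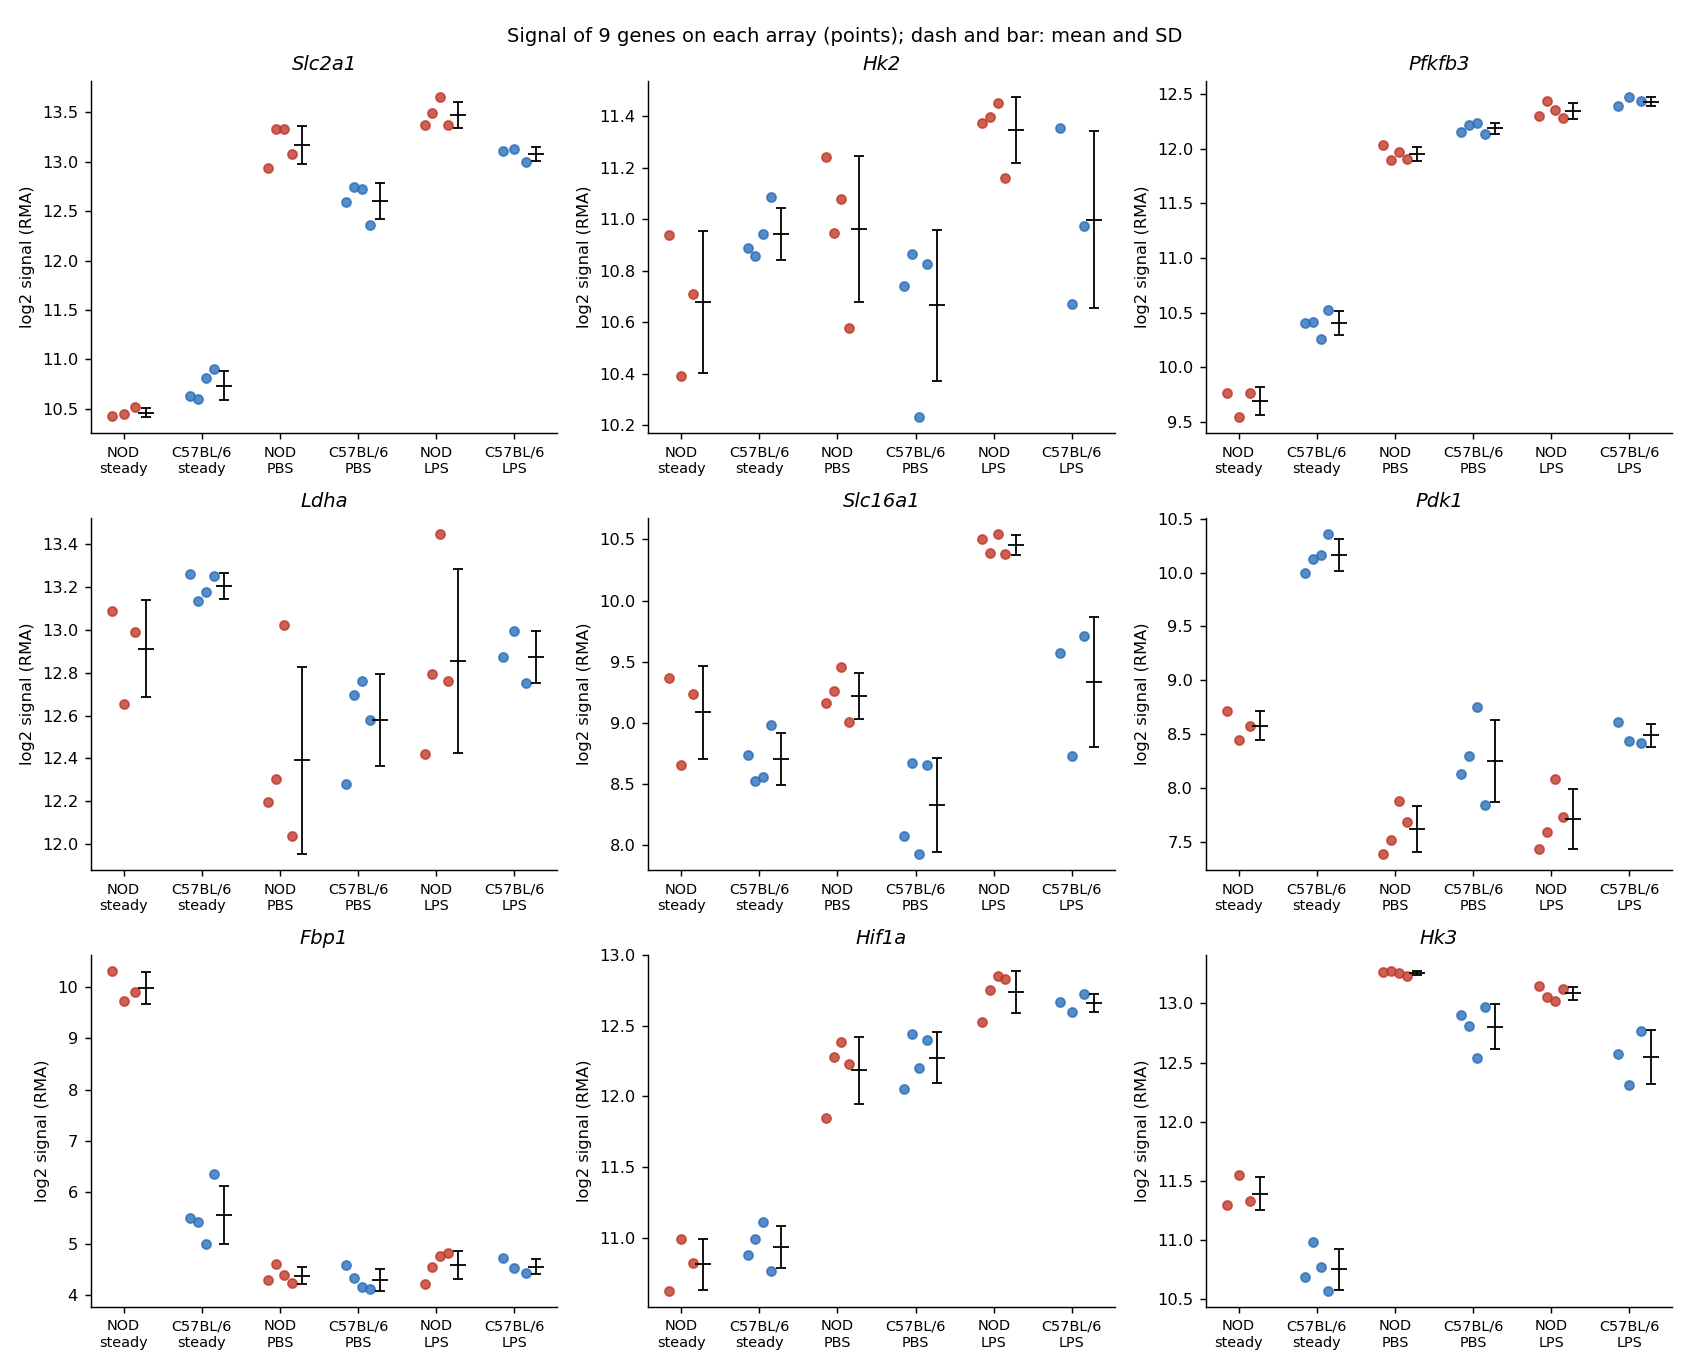
Log2 signal (y axis, RMA) of 9 members on each array (points), by strain and condition, with the group mean and SD beside the points. Fbp1 is high only on the 3 NOD steady state arrays (9.72 to 10.32), and Slc16a1 is highest on the 4 NOD LPS arrays (10.38 to 10.55).

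The third comparison took cultured DCs against steady state DCs and showed the widest differences. In NOD DCs 15 of 39 members rose and 15 fell after PBS culture, and in C57BL/6 DCs 15 rose and 18 fell. This stands in a comparison where 41.6% of all genes rose and 30% fell in NOD, and 44.6% rose and 32.3% fell in C57BL/6, so the share of members that rose was no larger than among all genes. The rises were those of GLUT1, Hk3, Pfkfb3 and several late glycolytic enzymes, and the falls those of Pdk1, Pdk2, Pdk3 and Pdha1 around pyruvate dehydrogenase, GLUT3, aldolase C and the gluconeogenic genes Fbp1 and Pck2. The same 15 members rose, and the same 15 fell, in both strains. How many of all genes were called alike in both strains was not counted. Pfkp, Slc16a1 and Pdk4 were called lower in C57BL/6 and not in NOD. Whether the strains differed in these is given with the strain by culture test, where Pfkp (0.47 ± 0.17) and Slc16a1 (0.51 ± 0.27) were not called and the call for Pdk4 depended on most single arrays. The dimmer probe set of Slc16a1 was not called in C57BL/6. Another 6 members were called in neither strain from their brightest probe set, though other probe sets of Ldhb and Tigar were called in both. In C57BL/6 DCs other probe sets of Pfkl, Tpi1 and Pdhb were called too. The median over all genes was itself 0.16 in NOD and 0.17 in C57BL/6. The PBS arrays used here are also those of the LPS comparison, and the strain comparisons use the same arrays again, so the comparisons are not independent of each other.

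Of the transporters, Slc2a1 read 12.94, 13.33, 13.33 and 13.08 in cultured NOD DCs, against 10.42, 10.45 and 10.51 at steady state. In C57BL/6 DCs it read 12.59, 12.74, 12.72 and 12.36 after culture, against 10.63, 10.60, 10.81 and 10.90 at steady state. All cultured arrays were far above the steady state ones, by 2.71 ± 0.13 in NOD (adjusted p = 1.34e-08) and 1.87 ± 0.12 in C57BL/6 DCs (adjusted p = 9.37e-08), and all 3 probe sets rose. Slc2a6 rose by 1.93 ± 0.14 in NOD and 1.89 ± 0.15 in C57BL/6 DCs. Slc2a3 moved the opposite way: it was at 7.08, 7.57, 7.07 and 7.38 in cultured NOD DCs, against 9.45, 9.45 and 9.54 at steady state, with -2.21 ± 0.14 in NOD and -1.70 ± 0.098 in C57BL/6 DCs. Not all probe sets of Slc2a3 were called in C57BL/6 DCs.

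The hexokinases differed among themselves. Hk3 read 12.90, 12.81, 12.54 and 12.97 in cultured C57BL/6 DCs, against 10.69, 10.98, 10.78 and 10.57 at steady state, a rise of 2.05 ± 0.13 (adjusted p = 7.2e-08), with 1.86 ± 0.12 in NOD. Hk1, the constitutive form, rose by 0.67 ± 0.14 in NOD and 0.29 ± 0.11 in C57BL/6 DCs. Hk2 was not called, at 11.24, 10.95, 11.08 and 10.58 in cultured NOD DCs against 10.94, 10.39 and 10.71 at steady state, and 10.74, 10.86, 10.23 and 10.83 in cultured C57BL/6 DCs against 10.89, 10.86, 10.94 and 11.09 at steady state. Its groups overlapped in both strains. The differences were 0.28 ± 0.18 in NOD (adjusted p = 0.184), called higher without NOD steady state replicate 1 or NOD PBS replicate 4 (0.41 each), and -0.28 ± 0.14 in C57BL/6 DCs (adjusted p = 0.103), called lower under 6 alternatives, among them an intensity trend and robust spread (adjusted p = 0.0727) and leaving out C57BL/6 PBS replicate 2 or 4 (-0.34 and -0.33).

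Of the PFKFB enzymes, Pfkfb3 read 12.04, 11.90, 11.97 and 11.90 in cultured NOD DCs, against 9.77, 9.55 and 9.77 at steady state, and 12.15, 12.21, 12.24 and 12.14 in cultured C57BL/6 DCs, against 10.41, 10.41, 10.26 and 10.53 at steady state. The cultured arrays were all higher, by 2.26 ± 0.12 in NOD (adjusted p = 2.28e-08) and 1.78 ± 0.098 in C57BL/6 DCs (adjusted p = 2.59e-08). Pfkfb2 (-0.93 ± 0.16 in NOD and -0.83 ± 0.22 in C57BL/6) and Pfkfb4 (-0.56 ± 0.12 in NOD and -1.09 ± 0.12 in C57BL/6) fell. In neither strain were all probe sets of Pfkfb2 called.

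In upper glycolysis the aldolases parted. Aldoc, the brain-type aldolase, was at 6.44, 6.60, 6.25 and 6.61 in cultured NOD DCs, against 9.15, 8.36 and 9.19 at steady state, and 6.68, 6.44, 6.66 and 6.22 in cultured C57BL/6 DCs, against 9.13, 9.27, 9.28 and 9.31 at steady state. Culture minus steady state came to -2.43 ± 0.20 in NOD (adjusted p = 8.99e-07) and -2.75 ± 0.12 in C57BL/6 DCs (adjusted p = 4.71e-09), with no overlap. The main isoform Aldoa rose by 0.80 ± 0.12 in NOD and 0.70 ± 0.12 in C57BL/6 DCs, and the muscle-type phosphofructokinase Pfkm fell by 1.18 ± 0.13 in NOD and 0.98 ± 0.15 in C57BL/6 DCs. Pfkp had -0.13 ± 0.14 in NOD, uncalled, and -0.60 ± 0.11 in C57BL/6, where another of its probe sets was called higher (0.30), so its probe sets disagree in direction there.

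Of 5 lower glycolysis genes, 4 rose in each strain. Eno2 went furthest: it read 11.31, 11.14, 10.91 and 11.12 in cultured NOD DCs, against 7.98, 7.52 and 8.01 at steady state, and 10.30, 10.18, 10.40 and 10.43 in cultured C57BL/6 DCs, against 7.44, 7.28, 7.80 and 7.52 at steady state. The rises of 3.28 ± 0.15 in NOD (adjusted p = 9.51e-09) and 2.82 ± 0.13 in C57BL/6 DCs (adjusted p = 4.85e-09) left the groups far apart. Pyruvate kinase Pkm rose by 1.45 ± 0.12 in NOD and 1.22 ± 0.10 in C57BL/6 DCs, phosphoglycerate kinase Pgk1 by 0.94 ± 0.14 in NOD and 0.44 ± 0.11 in C57BL/6 DCs, and Pgam1 by 0.30 ± 0.13 in NOD and 0.20 ± 0.093 in C57BL/6 DCs. The muscle-type enolase Eno3 fell by 1.24 ± 0.17 in NOD and 1.10 ± 0.14 in C57BL/6 DCs.

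At the fate of pyruvate, the lactate exporter Slc16a3 (MCT4) rose by 1.94 ± 0.33 in NOD and 1.58 ± 0.21 in C57BL/6 DCs, while Ldha was at 12.20, 12.30, 13.03 and 12.04 in cultured NOD DCs, against 13.09, 12.66 and 12.99 at steady state, and 12.28, 12.70, 12.76 and 12.58 in cultured C57BL/6 DCs, against 13.26, 13.13, 13.18 and 13.25 at steady state. The C57BL/6 groups did not overlap (-0.63 ± 0.12, adjusted p = 0.000669). The NOD groups did (-0.52 ± 0.21, adjusted p = 0.0521), and that call was lost without any of NOD steady state replicates 1 and 6 or NOD PBS replicates 1, 2 and 4, at -0.49 to -0.40. Pdk1 was at 8.13, 8.30, 8.75 and 7.84 in cultured C57BL/6 DCs, against 10.00, 10.13, 10.17 and 10.36 at steady state, a fall of 1.91 ± 0.17 (adjusted p = 1.53e-06), with 0.96 ± 0.14 in NOD. Also lower were Pdk2 (-1.39 ± 0.12 in NOD and -1.62 ± 0.16 in C57BL/6), Pdk3 (-0.73 ± 0.12 in NOD and -0.48 ± 0.14 in C57BL/6) and the E1α subunit gene Pdha1 (-1.69 ± 0.19 in NOD and -1.63 ± 0.13 in C57BL/6), whereas Pdhb was not called.

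Fbp1 fell by 5.60 ± 0.16 in NOD DCs (adjusted p = 2.49e-10) and by 1.27 ± 0.23 in C57BL/6 DCs (adjusted p = 0.000568), to the dim values given above, so that both falls end near the bottom of the signal range. Pck2 fell in both strains (-0.94 ± 0.16 in NOD and -1.31 ± 0.14 in C57BL/6), and the muscle-type bisphosphatase Fbp2 rose slightly (0.44 ± 0.14 in NOD and 0.41 ± 0.15 in C57BL/6). In the pentose phosphate pathway, Pgd of the oxidative branch (0.89 ± 0.12 in NOD and 0.59 ± 0.10 in C57BL/6) and transaldolase Taldo1 (0.76 ± 0.15 in NOD and 0.54 ± 0.15 in C57BL/6) rose and Tkt fell (-1.36 ± 0.14 in NOD and -1.37 ± 0.12 in C57BL/6). Bpgm, which makes 2,3-bisphosphoglycerate, fell by 1.52 ± 0.20 in NOD and 1.40 ± 0.12 in C57BL/6 DCs. In neither strain were all probe sets of Tkt called, nor all those of Bpgm.

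Hif1a read 11.85, 12.28, 12.39 and 12.23 in cultured NOD DCs, against 10.63, 10.99 and 10.82 at steady state, and 12.05, 12.44, 12.20 and 12.40 in cultured C57BL/6 DCs, against 10.88, 10.99, 11.11 and 10.76 at steady state. All cultured arrays were higher, by 1.37 ± 0.15 in NOD (adjusted p = 1.28e-05) and 1.34 ± 0.12 in C57BL/6 DCs (adjusted p = 1.76e-06), and all 4 probe sets of the gene rose in both strains. Of the 15 members that rose in both strains, 11 hold ACGTG in a promoter window, and of the 14 with a window that fell in both strains 6 do. These groups of windows differ in G and C too, with medians of 63.3% among the members that rose and 56.7% among those that fell. The median of CG per 100 bases was 7.33 among the members that rose and 4.0 among those that fell.

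Cell type markers moved strongly with culture. Itgax averaged 8.93 ± 0.23 in cultured NOD DCs, against 10.89 ± 0.061 at steady state, and 9.03 ± 0.077 in cultured C57BL/6 DCs, against 11.32 ± 0.055 at steady state (SD, n = 3 or 4). Of 10 DC genes, 1 rose and 5 fell in NOD (-4.48 to 4.22), and 4 rose and 4 fell in C57BL/6 DCs (-4.88 to 4.13). The summed DC signal was 50100 to 61400 in cultured NOD arrays, against 71800 to 79900 at steady state. In C57BL/6 it was 76400 to 85200 in cultured arrays, against 75400 to 85100 at steady state. All 10 acinar genes fell in each strain, with summed signals of 4870 to 63800 in cultured NOD arrays, against 70500 to 138000 at steady state, and 5520 to 47900 in cultured C57BL/6 arrays, against 101000 to 135000 at steady state. Macrophage and monocyte genes fell in 8 of 11 cases in NOD and 9 of 11 in C57BL/6 DCs, and cell cycle genes in 7 of 9 and 8 of 9. In each strain 1 macrophage and monocyte gene rose, and 1 cell cycle gene rose in NOD. Their part in the member differences was not tested.

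**Figure D3:**
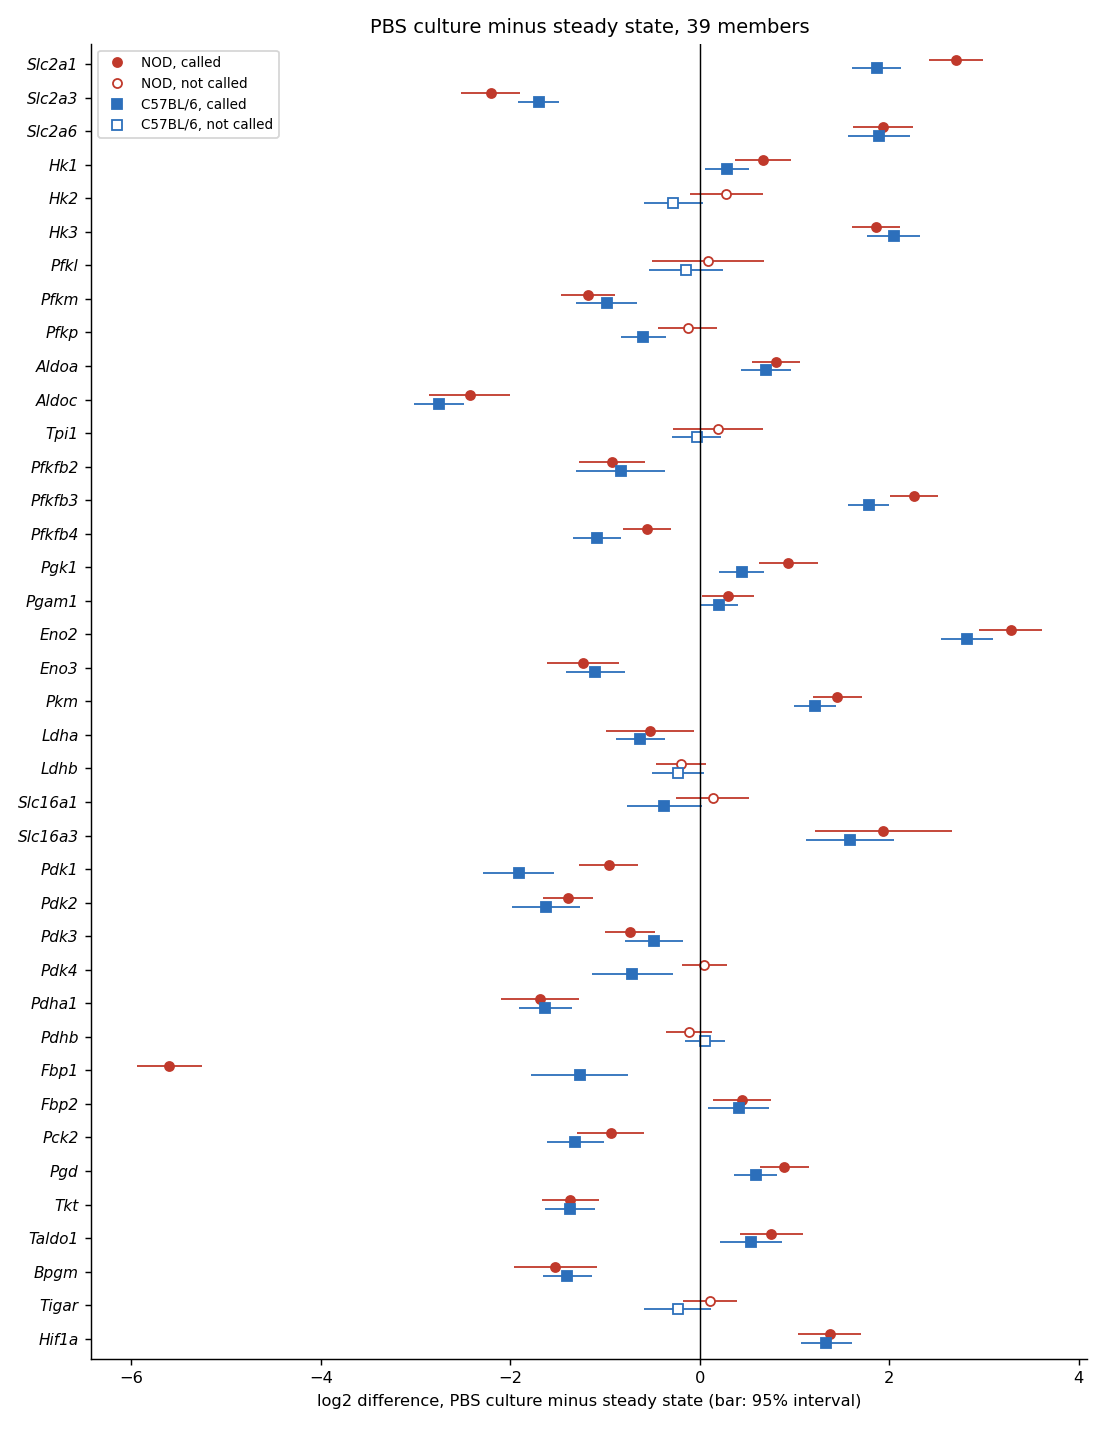
Log2 difference, PBS culture minus steady state (x axis), for the 39 measured members in NOD and C57BL/6 DCs, in order of pathway position from uptake at the top; bars are 95% intervals and open symbols were not called. Eno2 (3.28 in NOD and 2.82 in C57BL/6) lies farthest right, and Fbp1 in NOD (-5.60) farthest left.

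Whether culture moved a member differently in the 2 strains was tested as the NOD difference minus the C57BL/6 difference. For 5 members this was positive and for 1 negative (4.91% and 2.89% of all genes). Slc2a1 rose more in NOD (0.84 ± 0.17, adjusted p = 0.00795) and Pfkfb3 likewise (0.48 ± 0.14, adjusted p = 0.0565). Pdk1 (0.95 ± 0.24, adjusted p = 0.0271) and Pfkfb4 (0.53 ± 0.16, adjusted p = 0.0651) fell less in NOD, and Pdk4, which fell by call in C57BL/6 only, had 0.76 ± 0.24 (adjusted p = 0.0921). Fbp1 fell more in NOD (-4.33 ± 0.32, adjusted p = 1.96e-07), but its C57BL/6 mean was already dim at steady state (5.57, against 9.98 in NOD). Both strains ended dim after culture (4.38 in NOD and 4.30 in C57BL/6), so C57BL/6 had little room for a like fall. The interaction of Fbp1 therefore largely repeats its strain difference at steady state. Pdk4 was dim in NOD at steady state (mean 5.51). The call for Pdk4 was lost on leaving out any of 12 of the 15 arrays (all but C57BL/6 steady state replicates 1 and 5 and C57BL/6 PBS replicate 3; 0.64 to 0.92), that for Pfkfb4 on leaving out any of 7 (C57BL/6 steady state replicates 5 and 6, NOD steady state replicates 4 and 6, C57BL/6 PBS replicates 2 and 3 and NOD PBS replicate 4; 0.45 to 0.62) and that for Pfkfb3 on leaving out any of 4 (C57BL/6 steady state replicates 1 and 6, NOD steady state replicate 4 and NOD PBS replicate 1; 0.40 to 0.52). Without NOD steady state replicate 4 only 3 members were called, and over the probe sets of Pfkfb3 the mean difference was 0.13 (adjusted p = 0.751). Of 9 cell cycle genes, 4 were also called positive here, and their part was not tested. Hk2, Ldha and Hif1a were not called, at 0.56 ± 0.24, 0.10 ± 0.25 and 0.03 ± 0.20.

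The last comparison asked which members responded to LPS over PBS in culture. In NOD DCs 3 members rose and none fell (1.93% and 2.46% of all genes): the lactate transporter Slc16a1, Hif1a and Pfkfb3. For Slc16a1 and for Pfkfb3 the dimmer probe set was not called. In C57BL/6 DCs no member was called by limma (0.945% of all genes rose and 0.868% fell), although 10 of 39 had an unadjusted p under 0.05, as had 8 in NOD. The share of all genes under this unadjusted p was not counted. The replicate numbers were shared between LPS and PBS arrays, and with them as a block 10 members were called in NOD, 9 of them higher, and 3 in C57BL/6 DCs, all higher, where 4.47% of all genes rose and 5.94% fell in NOD and 1.11% rose and 1.3% fell in C57BL/6.

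Slc16a1 read 10.51, 10.39, 10.55 and 10.38 in NOD DCs with LPS, against 9.16, 9.27, 9.46 and 9.01 with PBS. The 4 LPS arrays were all higher, by 1.23 ± 0.12 (2.35-fold), adjusted p = 0.000789. In C57BL/6 DCs it was at 9.58, 8.73 and 9.71 with LPS, against 8.07, 8.67, 7.93 and 8.65 with PBS, groups apart but scattered (1.01 ± 0.27, adjusted p = 0.162). With the block the C57BL/6 difference was called (0.92, adjusted p = 0.0482). Within pairs of equal number the LPS array was higher by 1.09 to 1.38 in 4 of 4 NOD pairs and by 0.80 to 1.05 in 3 of 3 C57BL/6 pairs.

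Hif1a had 12.53, 12.75, 12.85 and 12.83 in NOD DCs with LPS, against 11.85, 12.28, 12.39 and 12.23 with PBS (0.56 ± 0.13, adjusted p = 0.0614), and 12.67, 12.59 and 12.72 in C57BL/6 DCs with LPS, against 12.05, 12.44, 12.20 and 12.40 with PBS (0.39 ± 0.13, adjusted p = 0.298). LPS arrays stood above PBS arrays in both strains. Pfkfb3 had 12.30, 12.44, 12.36 and 12.28 in NOD DCs with LPS, against 12.04, 11.90, 11.97 and 11.90 with PBS (0.39 ± 0.095, adjusted p = 0.0628), and 12.39, 12.47 and 12.43 in C57BL/6 DCs with LPS, against 12.15, 12.21, 12.24 and 12.14 with PBS (0.25 ± 0.11, adjusted p = 0.461). It too was higher with LPS on every array of its strain. Both NOD calls were lost without any of NOD PBS replicate 4 and NOD LPS replicates 2, 3 and 4, which left 1 member called, and Hif1a was lost also without NOD PBS replicate 1 and Pfkfb3 without NOD PBS replicates 2 and 3. Over the 8 arrays left out, Hif1a ranged from 0.44 to 0.63 and Pfkfb3 from 0.36 to 0.42.

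Of the 7 members that the block added in NOD, Pfkl, Slc16a3, Tpi1 and Ldha had their highest NOD value on replicate 3 in both conditions. Pfkl, the liver-type phosphofructokinase, read 10.07, 10.36, 11.39 and 10.51 in NOD DCs with LPS, against 9.34, 9.50, 10.73 and 9.62 with PBS, in replicate order. The groups overlapped, although the LPS array was higher in 4 of 4 pairs, by 0.66 to 0.89. The difference was 0.79 ± 0.32 without the block (adjusted p = 0.312) and was called with it (adjusted p = 0.00325). In C57BL/6 DCs Pfkl had 0.81 ± 0.21 (adjusted p = 0.153).

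Slc16a3 and Tpi1, which interconverts the triose phosphates, behaved alike in this respect. Slc16a3 read 9.53, 10.62, 11.85 and 10.63 in NOD DCs with LPS, against 9.22, 10.31, 11.13 and 9.91 with PBS, and was higher with LPS by 0.31 to 0.72 within pairs (block adjusted p = 0.0327). Tpi1 was higher by 0.29 to 0.59 within NOD pairs (block adjusted p = 0.0223) and by 0.48 to 0.81 within C57BL/6 pairs (block difference 0.62, adjusted p = 0.0929). In C57BL/6 pairs Slc16a3 was higher by 0.50 to 0.87 (block difference 0.65, adjusted p = 0.0932). The plot by replicate number shows NOD replicate 3 on top for these genes.

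Ldha had 12.42, 12.79, 13.45 and 12.76 in NOD DCs with LPS, against 12.20, 12.30, 13.03 and 12.04 with PBS, overlapping groups with 0.47 ± 0.24 (block adjusted p = 0.0392). In C57BL/6 DCs it had 12.87, 12.996 and 12.75 with LPS, against 12.28, 12.70, 12.76 and 12.58 with PBS (0.29 ± 0.15, adjusted p = 0.525). Slc2a1 had 0.31 ± 0.12 in NOD (block adjusted p = 0.0906) and 0.48 ± 0.13 in C57BL/6 DCs (adjusted p = 0.181), where 1 of its 3 probe sets was called (0.61), and its LPS arrays were all above its PBS arrays in both strains. Hk2 had 0.39 ± 0.14 in NOD (block adjusted p = 0.0654) and 0.33 ± 0.20 in C57BL/6 DCs. Slc2a3 was the only member called lower with the block in NOD (-0.37, adjusted p = 0.076). Fbp1 stayed dim, with 0.20 ± 0.15 in NOD and 0.25 ± 0.15 in C57BL/6 DCs, both uncalled.

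The strain by LPS interaction, fitted over the 15 cultured arrays, called no member by limma in either direction (0.0165% and 0.0055% of all genes), with 1 member under an unadjusted p of 0.05 and none called with the replicate block. The interval of the difference for Slc16a1 ran from -0.40 to 0.86 and that for Hif1a from -0.23 to 0.57, so strain differences in the LPS response of this size were not resolved. With LPS, macrophage and monocyte genes fell in 5 of 11 cases in NOD and 3 of 11 in C57BL/6 DCs, and cell cycle genes rose in 1 of 9 and 5 of 9. Their part in the LPS differences was not tested.

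**Figure D4:**
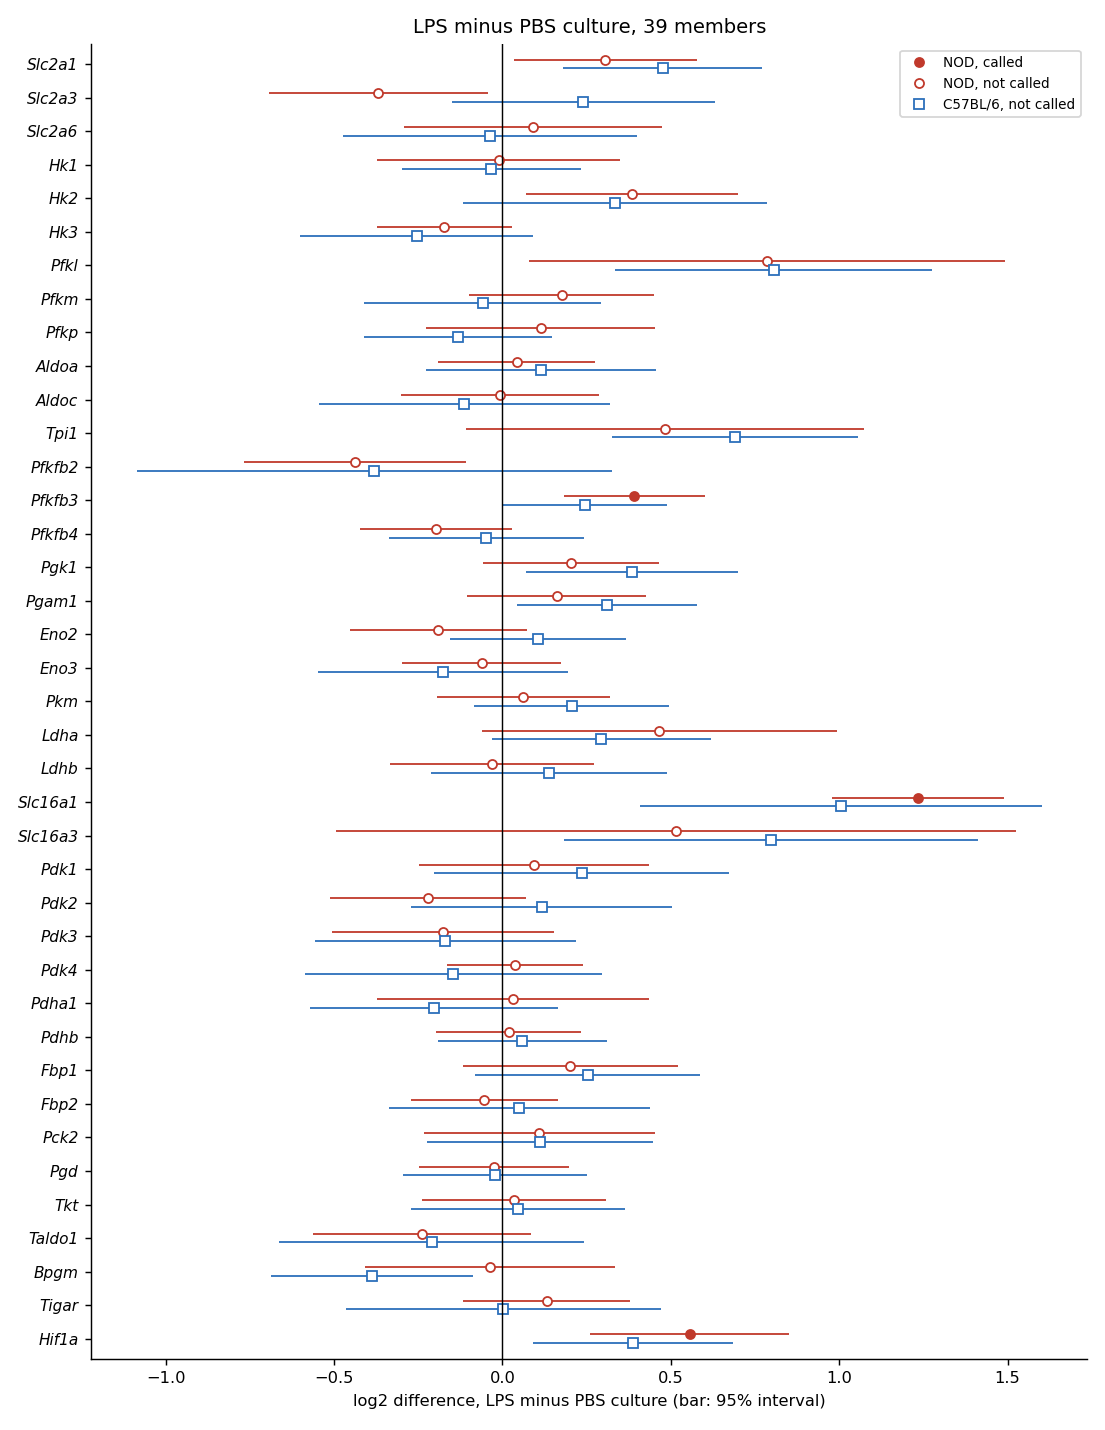
Log2 difference, LPS minus PBS culture (x axis), for the 39 measured members in NOD and C57BL/6 DCs; bars are 95% intervals, filled symbols were called and open ones not. Slc16a1 lies farthest right in both strains (1.23 in NOD, called, and 1.01 in C57BL/6, not called), and no C57BL/6 symbol is filled.

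**Figure D5:**
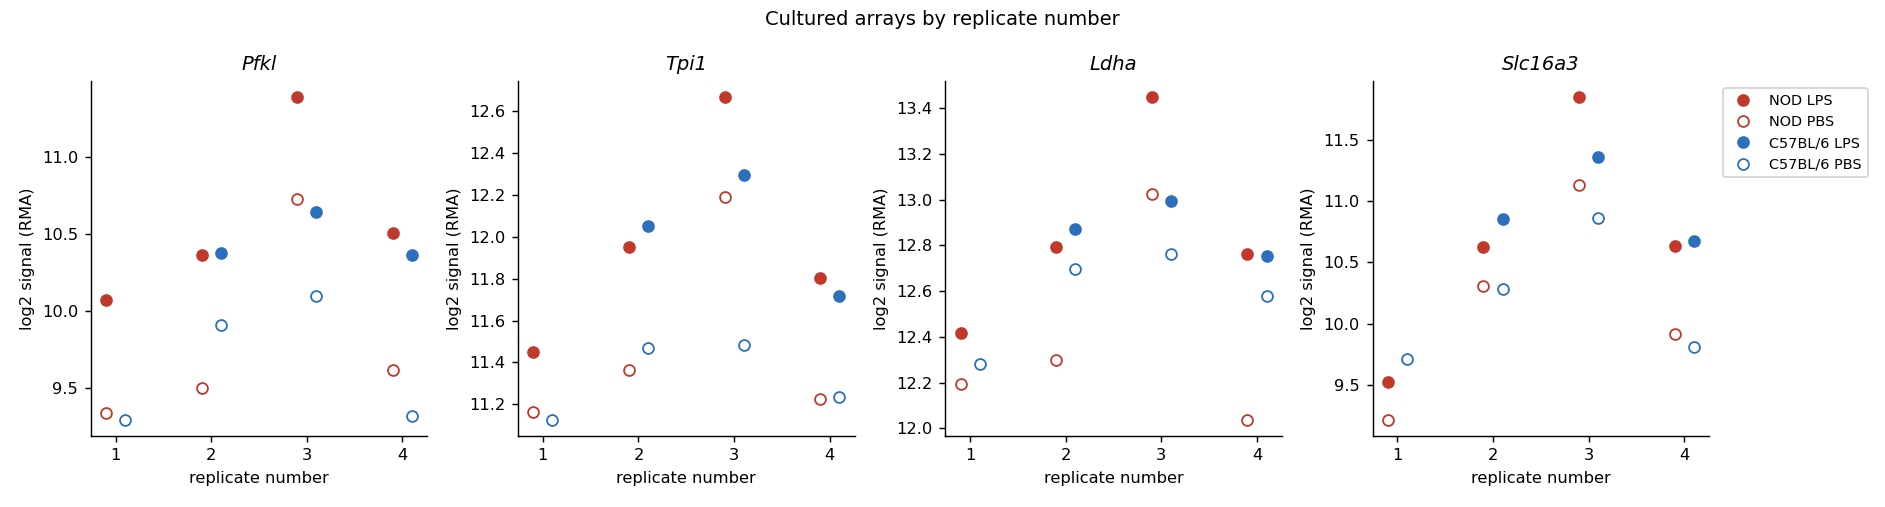
Log2 signal (y axis, RMA) of Pfkl, Tpi1, Ldha and Slc16a3 on the cultured arrays by replicate number (x axis); filled points are LPS arrays and open points PBS arrays. Where a strain has both arrays of a number, the LPS point is above the PBS point, and NOD replicate 3 is the highest of its group.

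Of 28 other genes of the pathways, 5 rose and 14 fell after culture in NOD and 9 rose and 13 fell in C57BL/6 DCs, where 41.6% of all genes rose and 30% fell in NOD and 44.6% rose and 32.3% fell in C57BL/6. The largest of these falls was that of Slc16a7, which encodes the pyruvate and lactate carrier MCT2, with -2.71 ± 0.21 in NOD and -3.22 ± 0.25 in C57BL/6. Slc37a4, the glucose 6-phosphate translocase, had -1.94 ± 0.17 in NOD and -1.92 ± 0.13 in C57BL/6. The transporter genes Slc2a8 (GLUT8) and Slc2a9 (GLUT9, a urate carrier) also fell, Slc2a9 by 1.59 in NOD and 0.97 in C57BL/6. Dlat, the E2 subunit of pyruvate dehydrogenase, fell by 0.84 in NOD and 1.32 in C57BL/6. Between the strains few of the 28 were called (2 higher and 1 lower at steady state, where 6.87% and 8.35% of all genes were called, 1 higher after PBS, where 5.43% were, and 3 higher and 1 lower after LPS, where 5.21% and 5.43% were), and after LPS the carrier Slc16a7 was higher in NOD (1.03 ± 0.27, adjusted p = 0.0495).

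Of 19 HIF regulators and targets outside glycolysis, 6 rose and 7 fell after culture in NOD and 8 rose and 8 fell in C57BL/6 DCs, where 41.6% of all genes rose and 30% fell in NOD and 44.6% rose and 32.3% fell in C57BL/6. The share that rose was no larger than among all genes. Ndrg1 (2.52 ± 0.44 in NOD and 2.13 ± 0.18 in C57BL/6), the peptide hormone gene Adm (1.98 ± 0.24 in NOD and 0.91 ± 0.23 in C57BL/6), the collagen hydroxylase P4ha1 (1.27 ± 0.14 in NOD and 1.14 ± 0.11 in C57BL/6) and Vegfa (0.93 ± 0.12 in NOD and 0.86 ± 0.12 in C57BL/6) rose. The oxygen sensor Egln1 (-1.94 ± 0.15 in NOD and -1.78 ± 0.11 in C57BL/6), the target Car9 (-1.04 ± 0.14 in NOD and -1.36 ± 0.14 in C57BL/6) and Epas1, which encodes HIF-2α (-1.53 ± 0.17 in NOD and -1.85 ± 0.18 in C57BL/6), fell. The list as a whole moved in both directions, with medians of 0.02 in NOD and -0.02 in C57BL/6.

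Of the 19 HIF regulators and targets, 2 were higher and 2 lower in NOD at steady state (6.87% and 8.35% of all genes). After PBS 1 was higher and 1 lower (5.43% and 5.28% of all genes), as after LPS (5.21% and 5.43%). Arnt, the partner without which HIF-1α does not bind DNA, was lower in NOD in all 3 settings. Arnt was read from the brightest of its 5 probe sets, and the others were not compared. It read 10.77, 10.63 and 10.64 in NOD and 11.35, 11.25, 11.22 and 11.19 in C57BL/6 DCs at steady state, with no overlap (-0.57 ± 0.092, adjusted p = 0.00242). The differences were -0.55 ± 0.14 after PBS (adjusted p = 0.0337) and -0.67 ± 0.13 after LPS (adjusted p = 0.011). Ddit4, a stress-induced inhibitor of mTORC1, was higher in NOD at steady state (1.41 ± 0.21, adjusted p = 0.00151), and LPS raised it by 1.62 ± 0.17 in NOD (adjusted p = 0.000966) and 1.26 ± 0.22 in C57BL/6 DCs (adjusted p = 0.045). Culture moved it in opposite directions by strain, -1.15 ± 0.20 in NOD and 0.48 ± 0.22 in C57BL/6, and this difference was called (-1.62 ± 0.33, adjusted p = 0.00768).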

How the data were processed

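The 22 arrays were hybridised with amplified RNA of sorted pancreatic DCs. The deposited log2 values were made by the authors with RMA (the submitters' processing notes), and the methods name BRB-ArrayTools, with no version stated. The values were used as deposited. Of 45101 probe sets, 64 controls were left out and 45037 were tested with limma 3.58.1 (R 4.3.3) on the arrays of the groups compared, with Benjamini-Hochberg adjustment over all of them and a call at an adjusted p under 0.1. The study used a multivariate permutation test, which was replaced by limma. Genes were read from the probe set with the highest mean among those naming 1 gene (34945 probe sets, 932 naming several and 9160 naming none).

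Groups followed the labels. Steady state, PBS and LPS arrays carry replicate numbers, and arrays of equal number deviated together in the 5 comparisons with 3 or more shared numbers (correlations of 0.109 to 0.487), so the blocked fit is given where it changes a call. In the culture comparisons, which share 2 numbers, correlations were -0.0328 to 0.277. All members could be named, and array values were given for up to 6 called members with the largest absolute difference in each comparison and for Slc2a1, Hk2, Pfkfb3, Ldha, Fbp1 and Hif1a; those of Pfkl, Slc16a3 and Arnt were added after their values were seen. Alternatives were a stricter threshold, a filter on dim probe sets, 1 fit of all arrays, centred arrays, a trended robust spread, gene means, the block and leaving out each array. The model was tested on simulated data. Members and lists were chosen with earlier results of these data known. Whether sequence differences between the strains affect probe binding was not tested. Promoter windows are from RefSeq (GRCm38.p6). Precision is limited by the number of arrays.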

Additional observations from a re-analysis of the deposited data

Results flagged for a closer look

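In 6 of 156 groups of 4 arrays, 1 array stood apart from the other 3, where 7.8 would stand apart at a chance rate of 1 in 20. Among C57BL/6 steady state arrays, Slc2a6 was low on replicate 4 (9.494, others 9.765 to 9.799) and Pfkl on replicate 6 (9.565, others 9.86 to 9.902). Pdk2 was high on NOD PBS replicate 1 (7.29, others 7.116 to 7.122). On NOD LPS arrays, Hk1 was high on replicate 3 (11.065, others 10.349 to 10.422), Aldoc on replicate 4 (6.792, others 6.336 to 6.377) and Pgd on replicate 1 (13.665, others 13.542 to 13.563).

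The change with culture differed between the strains, by limma's interaction term over 15 arrays, for 6 members. The NOD minus C57BL/6 values were 0.84 for Slc2a1 (95% interval 0.47 to 1.21), 0.48 for Pfkfb3 (0.19 to 0.76), 0.53 for Pfkfb4 (0.20 to 0.86), 0.95 for Pdk1 (0.45 to 1.45), 0.76 for Pdk4 (0.25 to 1.27) and -4.33 for Fbp1 (-5.00 to -3.67). The value for Fbp1 is limited by its dim C57BL/6 signal at steady state.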

How the results depend on the processing

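Counts of members called moved by over 1.5 times under these settings. At an adjusted p under 0.05, 5 were called between the strains after PBS, 1 with LPS in NOD and 3 in the strain by culture interaction. With gene means, 4 were called between the strains after LPS. For LPS in C57BL/6, where none was called, 4 were called without the dimmer part of the probe sets, 2 in 1 fit of all 22 arrays, 5 with an intensity trend and robust spread and 1 with gene means. With the replicate block, 10 were called for LPS in NOD, 3 for LPS in C57BL/6 and 1 in the strain by culture interaction (Fbp1), where the culture arrays share only a number. Leaving out 1 array at a time gave 5 to 8 members between the strains after PBS (5 without C57BL/6 PBS replicate 2), 3 to 8 after LPS (3 without C57BL/6 LPS replicate 3), 1 to 3 for LPS in NOD, 0 to 2 for LPS in C57BL/6 (2 without C57BL/6 PBS replicate 3) and 3 to 7 in the strain by culture interaction. The cause was not tested.

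Of the 81 differences of named members recomputed under the alternatives, those that changed sign were uncalled and near 0. With the replicate block these were Ldha between the strains after LPS (0.13) and Hif1a in the strain by culture interaction (-0.060). On leaving out 1 array, Hif1a ranged from -0.16 to 0.024 between the strains after PBS, and after LPS Ldha from -0.22 to 0.13 and Fbp1 from -0.047 to 0.15. In the strain by LPS interaction, Hk2 ranged from -0.11 to 0.23, Ldha from -0.027 to 0.38 and Fbp1 from -0.15 to 0.072, and in the strain by culture interaction Ldha from -0.11 to 0.22 and Hif1a from -0.058 to 0.15. Values under the array lower quartiles limit what Fbp1 and Pdk4 can show.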
